A study of Mus musculus with 6 samples.

Results

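Small leucine-rich proteoglycans are secreted proteins that sit on collagen fibrils of connective tissue. The 10 members described here are lumican (Lum), decorin (Dcn), biglycan (Bgn), fibromodulin (Fmod), osteoglycin (Ogn), osteomodulin (Omd), Prelp, asporin (Aspn), keratocan (Kera) and epiphycan (Epyc). They were found as all probe sets annotated to exactly 1 gene, where that gene is a member, which gave 21 of the 45101 probe sets on the array and 10 of the 18193 genes it names. The family was taken up because Lum and Dcn had read higher in the GATA6 KO arrays, so the difference between the groups is a description of the members, with no test on it.

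Total RNA of mouse lungs at E18.5, shortly before birth, was measured on 6 Affymetrix Mouse430_2 arrays. The groups are 3 arrays labelled wild-type (WT 1 to WT 3) and 3 labelled GATA6 KO (KO 1 to KO 3), called null for the zinc finger transcription factor GATA6, and the series addresses which lung genes it regulates. The labels name no strain, no Gata6 allele, no Cre driver and no litter, and do not say whether an array holds the RNA of 1 embryo. Any spread between arrays may therefore be in part technical.

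Each protein is a curved stack of leucine-rich repeats, and most carry glycosaminoglycan chains. Class I members (Dcn, Bgn, Aspn) are built for chondroitin or dermatan sulfate, although Aspn lacks the usual attachment site. Class II members (Lum, Fmod, Prelp, Kera, Omd) are linked to keratan sulfate, and class III holds Ogn and Epyc. They bind collagen and set fibril width and spacing, and Dcn and Bgn also bind transforming growth factor beta. In lung they are products of fibroblasts and other mesenchymal cells around airways and vessels.

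Across all arrays the median intensity lay between 20.6 and 24.1, and with so few arrays each value below is of limited precision. Levels are given as log2(intensity + 16), on which the lowest reading of an array lay between 4.17 and 4.18. The brightest Gata6 probe set read 11.12, 10.26 and 10.42 in WT 1 to WT 3 and 11.58, 11.39 and 11.19 in KO 1 to KO 3, higher in all KO arrays by 0.79 (SE 0.25, limma adjusted p = 0.963 over all probe sets). The other 2 probe sets differed by 0.82 (SE 0.31) and 0.36 (SE 0.45). Where they lie relative to the deleted part is not known here, so they check neither the deletion nor the labels, and KO and WT below stand for the label of an array. The arrays also differed in a value called RNA composition here, whose source was not tested. It is the median of bright probe sets without a gene name minus that of bright named ones. It was -0.23, -1.02 and -0.94 log2 in WT 1 to WT 3 and -0.96, -0.46 and -0.03 in KO 1 to KO 3, so it was highest in KO 3, WT 1 and KO 2. The instrument records put WT 1 and WT 2 on fluidics station 1, and WT 3 with the 3 KO arrays on station 2.

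Lum and Dcn lie side by side among the measured genes, as do Prelp with Fmod, Kera with Epyc, and the run of Aspn, Omd and Ogn. Only 4930473O22Rik lies between Lum and Kera among the measured genes, so those pairs are close neighbours on chromosome 10. Bgn stands alone on the X chromosome. The RefSeq promoter table of build GRCm38.p6 held 8 of the 10 members, all but Lum and Dcn. The 250 bases before the annotated start of Fmod, Prelp, Aspn and Ogn are shown. They were chosen because Fmod and Prelp were each other's nearest members in profile over the arrays, as were Aspn and Ogn. Capitals mark the letters GATA, the core recognised by GATA factors, or their reverse complement TATC.

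Fmod, chr1:134037004-134037253, strand +: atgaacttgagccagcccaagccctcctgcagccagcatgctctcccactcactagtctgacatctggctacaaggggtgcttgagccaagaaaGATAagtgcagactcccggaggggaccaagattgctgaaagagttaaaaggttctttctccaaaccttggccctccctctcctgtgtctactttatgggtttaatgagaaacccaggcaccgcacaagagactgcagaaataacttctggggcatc
Prelp, chr1:133921402-133921651, strand -: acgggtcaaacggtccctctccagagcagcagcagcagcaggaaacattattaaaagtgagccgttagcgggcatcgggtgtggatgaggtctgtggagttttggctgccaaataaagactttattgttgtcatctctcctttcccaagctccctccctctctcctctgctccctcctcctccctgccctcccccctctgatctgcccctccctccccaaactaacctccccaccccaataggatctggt
Aspn, chr13:49544193-49544442, strand +: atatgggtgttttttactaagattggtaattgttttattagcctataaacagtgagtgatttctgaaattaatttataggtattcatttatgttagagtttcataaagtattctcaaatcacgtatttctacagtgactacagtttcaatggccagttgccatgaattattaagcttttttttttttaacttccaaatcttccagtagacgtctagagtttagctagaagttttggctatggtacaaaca
Ogn, chr13:49607765-49608014, strand +: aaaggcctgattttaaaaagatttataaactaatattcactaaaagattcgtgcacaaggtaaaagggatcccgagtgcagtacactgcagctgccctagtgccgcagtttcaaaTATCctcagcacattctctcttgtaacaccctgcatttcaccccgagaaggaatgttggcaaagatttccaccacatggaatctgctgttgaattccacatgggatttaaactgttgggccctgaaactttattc

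The Fmod window holds 1 match on the strand shown and the Ogn window 1 on the opposite strand, while the Prelp and Aspn windows hold 0. Of the 32851 windows of that length in the table, 53.6% hold at least 1 match on either strand. A match is not a binding site, and its absence says only that these letters are not in this window.

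**Figure D1:**
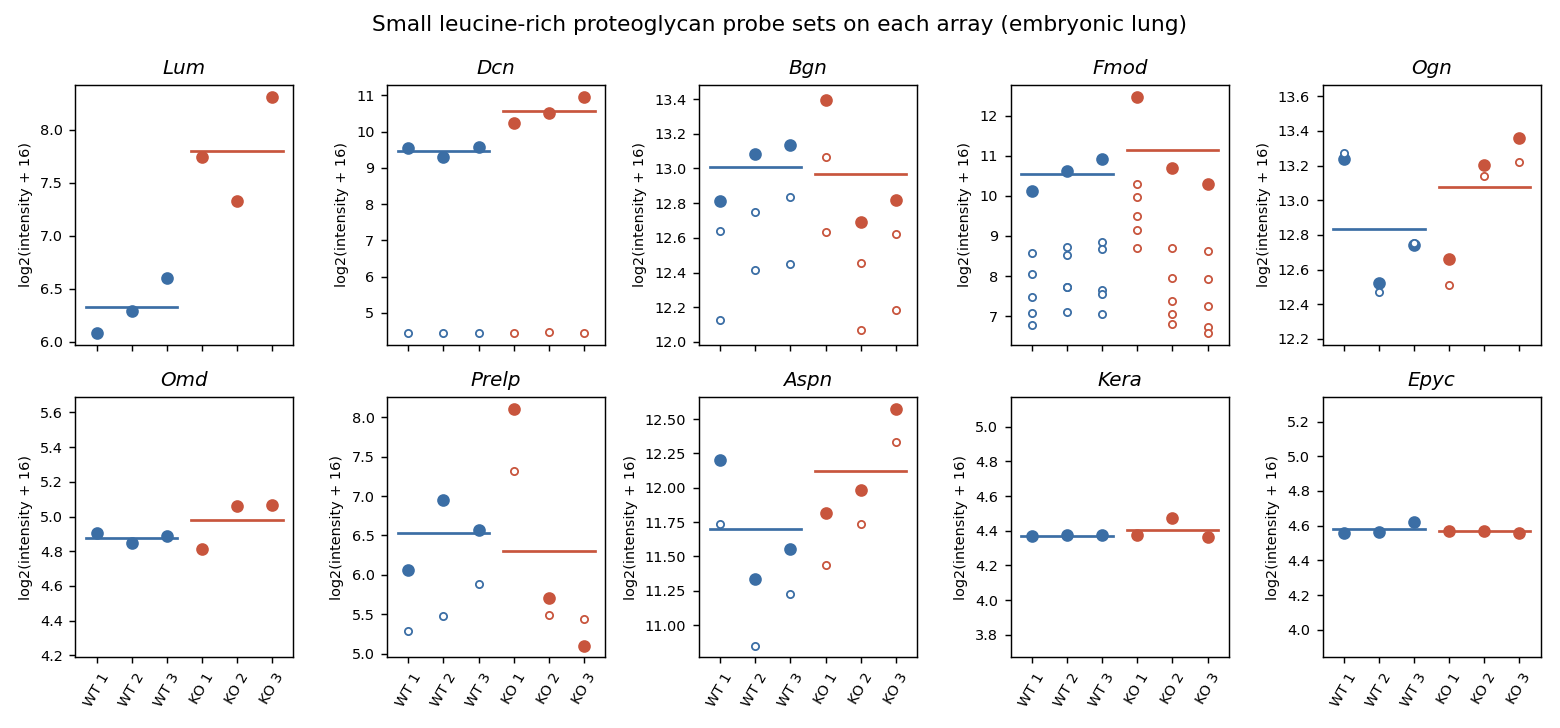
Level of each member on each array as log2(intensity + 16), 1 panel per gene with its own vertical axis. Filled points are the brightest probe set, open points the others, blue WT and red KO, and horizontal lines the group means of the brightest probe set. The KO arrays of Lum sit between 7.33 and 8.31 and its WT arrays between 6.08 and 6.60, while Fmod and Prelp stand out in KO 1.

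Lumican, a class II member that spaces collagen fibrils, had 1 probe set. It read 6.08, 6.29 and 6.60 in WT 1 to WT 3 and 7.74, 7.33 and 8.31 in KO 1 to KO 3, which is a deposited intensity of 51.6, 62.3 and 81.3 against 198.5, 144.9 and 301.4. Every KO array lay above every WT array. WT averaged 6.32 ± 0.26 and KO 7.79 ± 0.49 (SD, n = 3 arrays per group), which differ by 1.47 (SE 0.31) or 2.77-fold on this scale. The size of the difference depends on the pseudocount, at 1.67 with a pseudocount of 1 and 1.08 with 64.

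Decorin, the class I member that coats collagen fibrils and holds back growth factor signalling, read 9.55, 9.29 and 9.57 in the WT arrays. In KO 1 to KO 3 it read 10.24, 10.51 and 10.96, again above all WT arrays. WT averaged 9.47 ± 0.15 and KO 10.57 ± 0.36 (SD, n = 3 arrays per group), which differ by 1.10 (SE 0.20) or 2.14-fold. Its second probe set read 4.44 to 4.48 on all 6 arrays, near the lowest readings, and differed by 0.01 (SE 0.01), so that the higher level of Dcn rests on 1 probe set.

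Station 1 held only WT arrays, so the value within station 2 sets the 3 KO arrays against WT 3 alone. It was 1.19 (SE 0.48) for Lum and 1.00 (SE 0.33) for Dcn, and with station as a block it was 1.19 (SE 0.45) and 1.00 (SE 0.31). With the RNA composition value as a covariate the differences were 1.45 (SE 0.33) and 0.98 (SE 0.14). Groups that do not overlap fix the direction of the station values, which therefore bear only on the size. For the covariate fit the direction is not fixed in this way, but both genes were chosen on this contrast.

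Among the 21 member probe sets, 2 had all 3 KO arrays above all 3 WT arrays, those of Lum and Dcn, and 0 had them all below. Over all 45037 probe sets other than controls the shares were 5.72% above and 2.76% below. Counted by gene at the brightest probe set it was 2 of 10 above and 0 below, beside 5.89% and 3.81% of all genes. With fewer arrays more probe sets separate the groups. Without WT 1 it was 4 members above beside 10.6% of all probe sets, and without KO 3 it was 4 beside 33%. Without KO 1 it was 3 above and 5 below, beside 10.7% and 10.5%. By limma with Benjamini-Hochberg adjustment 0% of all 45037 probe sets passed 0.05, those of the members included. At an unadjusted p under 0.05 there were 1394 of the 45037. Since the family was chosen on this contrast, nothing is read from these counts. The mean was higher in KO for 16 probe sets, every Fmod probe set among them, and lower for 5. Counted by gene at the brightest probe set it was higher for 7 of 10. Of all genes, 41.6% had a lower mean in KO, and nothing is read from these counts either. The median difference of the 10 genes was 0.17, beside 0.0025 for all genes.

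**Figure D2:**
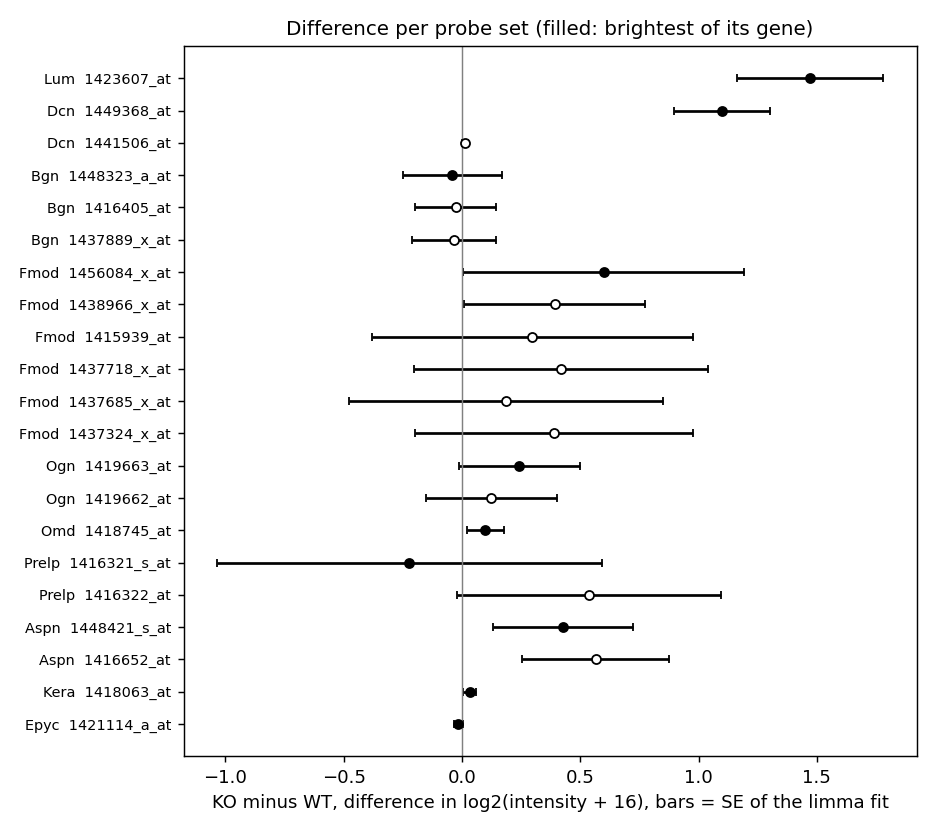
Difference KO minus WT in log2(intensity + 16) for each of the 21 probe sets, labelled by gene and probe set name, with the standard error of the limma fit as bars; filled points are the brightest probe set of a gene. Lum (1.47) and Dcn (1.10) lie farthest from 0, and the bars of Fmod and Prelp are the widest.

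In the other class I members the groups overlapped. Biglycan, the closest relative of decorin, read 12.81, 13.08 and 13.13 in the WT arrays and 13.39, 12.69 and 12.82 in the KO arrays. KO 1 was highest and KO 2 lowest, and the difference was -0.04 (SE 0.21). Its other 2 probe sets differed by -0.03 (SE 0.17) and -0.03 (SE 0.18) and had KO 1 highest too.

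Asporin, which binds collagen, read 12.21, 11.33 and 11.55 in the WT arrays and 11.82, 11.98 and 12.57 in the KO arrays. KO 3 was highest, but WT 1 lay above KO 1 and KO 2, and the groups overlapped. The difference was 0.43 (SE 0.30) for the brighter probe set and 0.56 (SE 0.31) for the dimmer. It was 0.21 with the RNA composition value as a covariate, 0.20 without KO 3 and 0.68 without WT 1.

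Osteoglycin, a class III member also called mimecan, followed nearly the same order. It read 13.24, 12.52 and 12.74 in the WT arrays and 12.66, 13.20 and 13.36 in the KO arrays. WT 1, KO 2 and KO 3 were the high arrays, and the groups overlapped (0.24, SE 0.26; second probe set 0.12, SE 0.28). Those 3 arrays are also the highest in the RNA composition value. With it as a covariate the Ogn difference was 0.05, and its part in the levels of Ogn and Aspn was otherwise not tested. Without WT 1 it was 0.44, without KO 1 0.45, without WT 2 0.09 and without KO 3 0.10.

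Fibromodulin, the class II relative of lumican that shares its collagen binding region, stood out on 1 array. Its brightest probe set read 10.13, 10.61 and 10.93 in the WT arrays and 12.48, 10.71 and 10.29 in KO 1 to KO 3. On this probe set KO 1 lay 2.91-fold above the next highest array, and KO 2 and KO 3 lay within the WT range. The difference of 0.60 (SE 0.59) therefore came to -0.06 without KO 1. All 6 Fmod probe sets had KO 1 highest, from 2.20-fold to 3.44-fold above the next array. Of them 5 are of the x type, which may share probes with other transcripts, and the sixth, without that mark, was 3.08-fold above.

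Prelp, a class II member that anchors basement membranes to collagen, had the same array on top. It read 6.06, 6.95 and 6.56 in the WT arrays and 8.10, 5.70 and 5.10 in KO 1 to KO 3, so KO 1 was highest of all and KO 2 and KO 3 were the lowest. The difference was -0.22 (SE 0.81), and -1.12 without KO 1. The dimmer probe set, again with KO 1 highest, differed by 0.54 (SE 0.56), so the 2 probe sets disagree in sign. On the dimmer one KO 2 and KO 3 read 5.49 and 5.44, within the WT range of 5.29 to 5.88. Their low values therefore rest on the brighter probe set, which carries an s suffix.

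Osteomodulin, keratocan and epiphycan, known from bone, cornea and growing cartilage, read near the lowest values of the arrays. Omd lay between 4.81 and 5.07, Kera between 4.37 and 4.47 and Epyc between 4.56 and 4.62 over all 6 arrays. Their differences were 0.10 (SE 0.08), 0.03 (SE 0.03) and -0.02 (SE 0.02), and at such levels the arrays could not show a change of modest size.

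The members' profiles were compared with each other. Likeness was taken as the root mean square distance between 2 genes' log2 values over the 6 arrays, each gene centred on its own mean. By this measure Lum and Dcn (0.32), Fmod and Prelp (0.52), and Ogn and Aspn (0.17) were each other's nearest members, as were Kera and Epyc (0.04), both of which were flat. The choice of the family on Lum and Dcn fixes much of the likeness of that pair, so it is no result. Omd and Bgn, also of small spread, lay nearest to Kera (0.09) and Epyc (0.23). The next member was farther away, at 0.40 from Dcn (Aspn), 0.59 from Fmod (Bgn) and 0.25 from Ogn (Omd). The distances describe 6 shared arrays and were given no test.

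**Figure D3:**
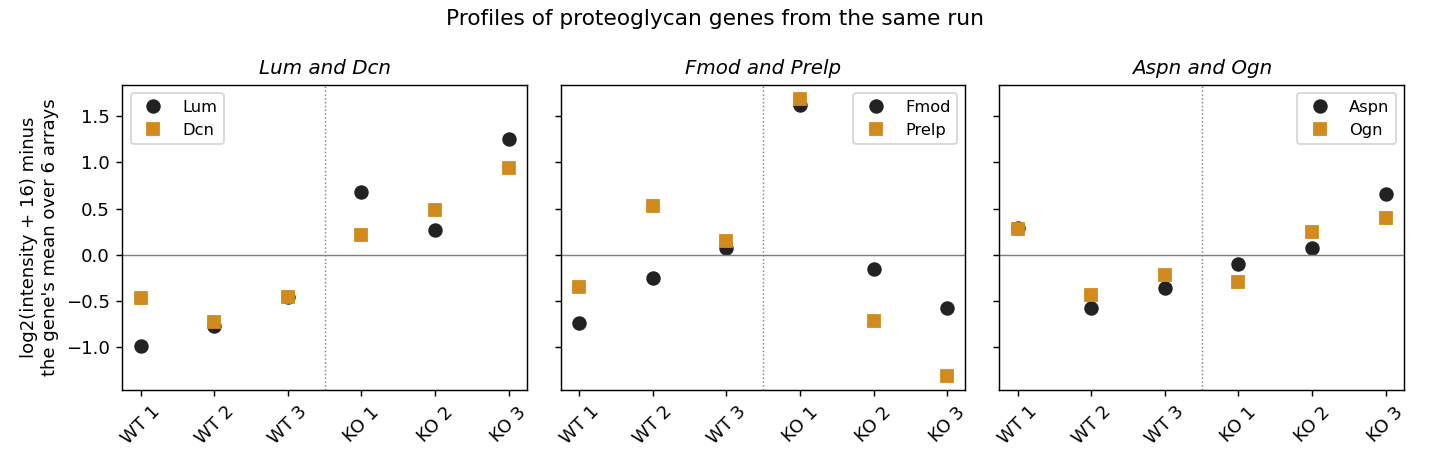
Level of the brightest probe set on each array minus the gene's mean over the 6 arrays, for 3 pairs of genes from the same run on a common axis; the dotted line parts WT from KO. Lum and Dcn separate the groups, Fmod and Prelp peak in KO 1, and Aspn and Ogn are high in WT 1, KO 2 and KO 3.

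Of the genes just outside these runs, Btg1, an antiproliferative gene and the second measured gene beyond Dcn, read 12.97 in WT and 13.37 in KO, with all KO arrays above all WT arrays. Its difference was 0.39 (SE 0.18) and did not pass (limma adjusted p = 0.964). The nearest to Dcn on that side, 4930556N09Rik, read 4.40 in both groups. On the Lum side 4930473O22Rik, between Lum and Kera, and Ccer1, beyond Kera and Epyc, read near the floor too, at 4.29 and 4.49 in WT. Members were passed over in picking these neighbours. Atp2b1, on the far side of Kera and Epyc, differed by -0.19 (SE 0.13). Btg2, beside Fmod, differed by -0.12 (SE 0.12), and Optc, the gene of the related opticin beside Prelp, read 4.41 in WT and 4.42 in KO. Beyond them Chit1 and Atp2b4 were dim and differed by -0.03 (SE 0.04) and 0.10 (SE 0.08). Around the run of Aspn, Omd and Ogn the groups overlapped for Ecm2 (0.12, SE 0.24), Tes3-ps (-0.06, SE 0.31), Nol8 (-0.12, SE 0.25) and Iars (-0.23, SE 0.31). Near Bgn, Trex2, Atp2b3 and Dusp9 were dim, with WT means of 4.31, 4.39 and 4.83. Haus7, beside Bgn, differed by -0.32 (SE 0.14), with all KO arrays below all WT arrays. None of these genes passed.

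Among all genes above the median level, the 5 whose profile lay nearest to Lum were Maob (distance 0.24), Aox3 (0.25), Emb (0.26), Aqp4 (0.28) and Pof1b (0.31). Nearest to Dcn were Rab17 (0.11), Cab39l (0.12), Scn3a (0.13), Abi3bp (0.18) and Ramp1 (0.20). No gene stands in both sets of 5.

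Relatives outside the 10 members were mostly dim. Of the other small leucine-rich proteins 6 of 8 were measured and 5 of them read below the median gene. The exception was Chad, chondroadherin, at 6.57, 8.64 and 9.85 in the WT arrays and 10.41, 8.54 and 8.36 in the KO arrays. KO 1 was highest and WT 1 lowest, the groups overlapped, and the difference was 0.75 (SE 0.96). By limma 0 of the 6 passed, and 0 had an unadjusted p under 0.05.

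Genes that act with these proteoglycans were counted with 1 probe set per gene. Over all 18193 genes limma called 1, or 0.0055%, and that was lower in KO. At an unadjusted p under 0.05 there were 834 genes, or 4.58%, with 2.59% lower in KO, and 41.6% of all genes had a lower mean in KO. Of the 16 fibrillar and fibril-associated collagens 0 passed in either direction, 0 had an unadjusted p under 0.05, and the median difference was -0.04. Col1a2, Col3a1 and Col6a1, which build the fibrils and microfibrils these proteins bind, differed by 0.01 (SE 0.15), -0.04 (SE 0.16) and -0.06 (SE 0.15). The smallest p belonged to Col12a1, a fibril surface collagen, at -0.31 (SE 0.20, limma adjusted p = 0.964). Of 17 genes of collagen cross-linking and propeptide removal 0 passed and 0 had an unadjusted p under 0.05 (median -0.09), with Pcolce, which speeds the trimming of procollagen, at -0.30 (SE 0.13) and P4ha2, a collagen prolyl hydroxylase, at 0.53 (SE 0.24).

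The genes that build the sugar chains were counted in the same way. Of 22 for chondroitin and dermatan sulfate 0 passed, 15 had a lower mean in KO, beside 41.6% of all genes, and the median was -0.12. Csgalnact2, which starts the chondroitin chain, had the smallest p at -0.74 (SE 0.17, limma adjusted p = 0.832), and Chst12 and Chsy1 followed at -0.43 (SE 0.21) and -0.43 (SE 0.23). Of 10 for keratan sulfate and sulfate supply 0 passed and 7 had a lower mean (median -0.14), beside the same 41.6%. The sulfotransferase genes Chst1 and Chst5 differed by -0.80 (SE 0.19) and -0.60 (SE 0.23), with limma adjusted p-values of 0.886 and 0.964. At an unadjusted p under 0.05 these 2 lists held 1 and 2 genes, all lower, beside 2.59% of all genes. The direction of both medians depends on the processing. The chondroitin median was 0.0042 with the RNA composition covariate, and the keratan sulfate median was 0.03 with station as a block or within station 2.

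Of 24 other matrix and cell surface proteoglycans 0 passed and the median was -0.03. Spock2, a testican, differed by -2.00 (SE 0.52), Gpc6, a glypican, by 0.69 (SE 0.23) and Srgn, the proteoglycan of blood cell granules, by -0.47 (SE 0.18). These 3 were all that had an unadjusted p under 0.05, beside 4.58% of all genes. Of 13 proteases that can cleave the family 0 passed (median -0.01). At an unadjusted p under 0.05 there was 1 lower, Adamts9 at -0.49 (SE 0.20), beside 2.59% of all genes. Of 18 growth factors and receptors that the family binds 0 passed and 12 had a lower mean (median -0.19), beside 41.6% of all genes. At an unadjusted p under 0.05 there were 3 lower, beside 2.59% of all genes. Egfr, the receptor of epidermal growth factor, which Dcn can bind, differed by -1.74 (SE 0.25, limma adjusted p = 0.5), Kdr by -0.68 (SE 0.25) and Tgfb1, a ligand that Dcn and Bgn bind, by -0.76 (SE 0.29).

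**Figure D4:**
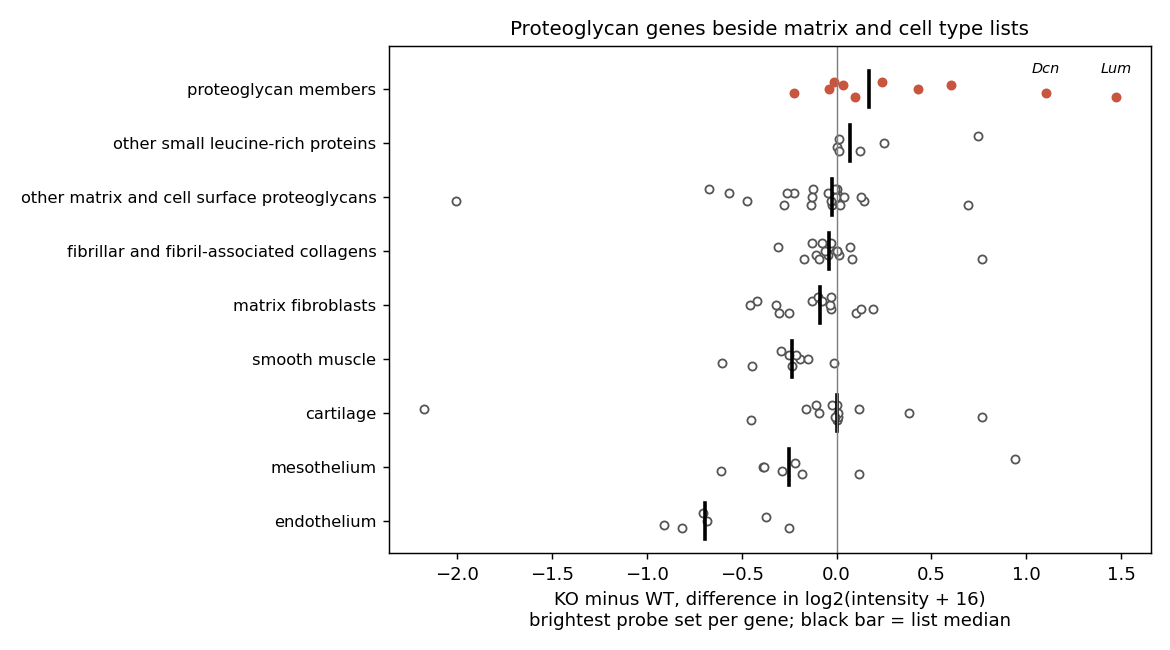
Difference KO minus WT in log2(intensity + 16), 1 point per gene at its brightest probe set, for the 10 members (red) and 8 lists of matrix and cell type genes; black bars are list medians and vertical scatter within a list only separates points. The members' median is 0.17 and Lum and Dcn lie at 1.47 and 1.10, while the matrix fibroblast and collagen medians are -0.09 and -0.04.

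In whole lung, a larger share of cells of one type and more RNA per cell cannot be told apart, so cell type markers are given beside the members. For matrix fibroblasts 0 of 14 measured markers passed and 11 had a lower mean in KO (median -0.09), beside 41.6% of all genes. At an unadjusted p under 0.05 there was 1 lower, beside 2.59% of all genes. Their summed intensity ranged from 53839 to 60145 in WT and from 51256 to 60925 in KO. Much of it was Tcf21 and Mfap4, at 20477 and 14931 in WT 1, so the sum says little of the other markers. Col13a1 differed by -0.46 (SE 0.07, limma adjusted p = 0.643), Mfap2 by -0.32 (SE 0.15) and Pdgfra, the receptor that marks these cells, by -0.25 (SE 0.16). The groups' sums overlapped. Of the 14, 0 had all KO arrays above all WT arrays and 1, Col13a1, had them all below, beside 5.89% and 3.81% of all genes.

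For smooth muscle 0 of 9 passed (median -0.23), with a sum of 11551 to 15036 in WT and 10059 to 12834 in KO. All 9 had a lower mean in KO, beside 41.6% of all genes. Of them 1, Hhip, had all KO arrays below all WT arrays, beside 3.81% of all genes. For mesothelium 0 of 8 passed (median -0.25), with sums of 15914 to 21715 and 12513 to 26011, much of them Krt19 (7166 in KO 1). With station as a block these medians were -0.49 and 0.21, so the direction for mesothelium turns. Endothelial markers had a lower mean in all 6 (median -0.69), beside 41.6% of all genes, with a sum of 6489 to 9880 against 4750 to 6445. Of these 0 passed and 2, Cldn5 and Kdr, were lower at an unadjusted p under 0.05, beside 2.59% of all genes. Cldn5, their tight junction gene, differed by -0.70 (SE 0.14, limma adjusted p = 0.832). Whether the share of endothelial RNA bears on Lum and Dcn was not tested. Of epithelial, blood, heart muscle and skeletal muscle markers 0 of 6, 0 of 5, 0 of 6 and 0 of 6 passed, with medians of -0.08, -0.07, 0.05 and 0.0032. None of these 4 lists, nor smooth muscle or mesothelium, held a gene with an unadjusted p under 0.05. For epithelium, heart muscle and mesothelium the groups' sums overlapped, and blood markers summed to 2331 to 4990 in WT and 2191 to 3135 in KO.

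Cartilage and tendon also make Fmod and Prelp, the pair that peaked in KO 1. The cartilage genes Col2a1, Acan, Matn1, Comp and Cnmd read between 4.34 and 4.45 on every array, KO 1 included. They were picked from the 15 markers after their values were seen. Of the 15 cartilage markers 0 passed (median 0.0016) and 1 was lower at an unadjusted p under 0.05, beside 2.59% of all genes. That was Matn4 at -2.17 (SE 0.63). The markers' sum was 1018 to 1220 in WT and 458 to 970.0 in KO, and in WT much of it was Matn4. Its intensity was 523.2 to 736.5 in WT and 40.1 to 309.3 in KO. In KO 1 the sum was 970.0 with Matn4 at 40.1. Col9a1 and Sox9 were highest in KO 1, at 8.36 and 8.21 against 5.00 to 6.66 and 6.91 to 7.37 on the other arrays. Col9a3, a dim gene, was highest there too, at 4.96 against 4.61 to 4.77. Hapln1 and Cytl1 were highest in WT 3, and Matn4 was lowest in KO 1. Of 7 tendon and bone markers 0 passed, 0 had an unadjusted p under 0.05 and all were dim (median 0.0047), with sums of 87.6 to 98.0 and 74.2 to 132.7. In KO 1 the mesothelial markers summed to 12513 against 15914 to 26011 on the other 5 arrays. The epithelial markers were mixed there. Sftpc, the surfactant protein C gene, had an intensity of 6700 against 42194 to 56822 elsewhere, while Epcam and Cdh1, genes of epithelial cell adhesion, read 11.36 and 13.06, the highest of all arrays. Whether the makeup of that lung bears on Fmod and Prelp was not tested.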

How the data were processed

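The authors deposited intensities on a linear scale, 1 value per probe set and array. Per the submitters' processing notes GCRMA and MAS5 were used, with no version, order or role, and the step that gave these intensities is not given in the sources used here. Similar quantiles on all arrays were taken to mean that they had been scaled to each other.

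Probe sets were named from the platform annotation through gene IDs of a RefSeq table (GRCm38.p6): 34945 named 1 gene (34741 by a current ID), 932 several and 9160 none, and 64 controls were left out. Intensities were taken to log2 after adding 16. limma 3.58.1 in R 4.3.3 (lmFit, eBayes with an intensity trend) was fitted once over 45037 probe sets, for the members, and once over 18193 genes by their brightest probe set, for lists, two-sided, with Benjamini-Hochberg adjustment at 0.05. Errors on differences are standard errors of that fit, and each array counted as 1 replicate. The fit over genes was tested on simulated data, and the fit over probe sets was not. The text names all 10 members, Gata6 and up to 3 genes per list with the smallest p. It also names the 2 nearest measured genes other than members on each side of each run, and the 5 genes most like Lum and Dcn. Other names were chosen after their values were seen. Members and lists were chosen with earlier results of these data known. Numbers 1 to 3 were not taken as pairs, since residuals of same-numbered arrays correlated at -0.61, 0.10 and -0.31. Alternatives covered pseudocount, scaling, probe set, filter, blocks, weights and left-out arrays.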

Additional observations from a re-analysis of the deposited data

How the results depend on the processing

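The differences of Lum and Dcn kept their sign in all 18 alternatives, which the choice of these genes on this contrast favours. Lum ranged from 1.08 to 1.70, and from 1.21 to 1.70 with 1 array left out. Dcn ranged from 0.56 to 1.27, and from 0.91 to 1.27 with 1 array left out. Its 0.56 came with the mean of all its probe sets, which takes in the one near the floor. The median of the 10 members (0.17) was 0.24 with array quality weights, 0.27 with the brightest probe set without an s or x suffix, and 0.085 to 0.25 with 1 array left out. The count of member probe sets above was 4 within station 2, with 1 below, where WT is a single array and 15.8% and 16% of all probe sets did so. With 1 array left out it ran from 2 to 4 above and from 0 to 5 below, beside 7.09% to 33% and 3.34% to 10.5% of all probe sets. The replicate block left the differences as they were (1.47 for Lum, SE 0.30, and 1.10 for Dcn, SE 0.19). The number of genes limma called over the whole array was 1 as reported, 0 with the replicate block, the composition covariate or eBayes without a trend, 32 with station as a block and 10 within station 2, and 0 to 1 with 1 array left out. Of the 288 counts for lists under the alternatives 2 were above 0, each 1 gene with station as a block. List medians kept their sign in all 16 alternatives for 6 of 18 lists (other small leucine-rich proteins, cross-linking, growth factors and receptors, matrix fibroblasts, smooth muscle, endothelium) and changed it in at least 1 for the other 12. The sign was kept in 17 of 18 alternatives by Fmod, 16 by Kera, 16 by Epyc, 14 by Bgn and 13 by Prelp, and in all 18 by Ogn, Aspn and Omd. Dim probe sets (Omd, Kera, Epyc, the second of Dcn) carry too little signal over background to measure a change.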

Other observations

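The peak of Fmod and Prelp in KO 1 was shared with other genes, chosen here after their values were seen. Ranked by how far KO 1 lay above the next highest array, Fmod was 23rd and Prelp 51st of 18193 genes. The list was led by Ern2, at 8.09 in KO 1 against 4.40 to 4.76 elsewhere. Itih2, Pcdh10 and Lrrn3 followed, at 2.58, 2.42 and 2.36 above the next array on the log2 scale. Further down stood Spink4 (2.33), Tff3 (1.83), which is secreted with mucus, and Spdef (1.75), a transcription factor of goblet cells. Atp6v1b1 (2.18) and Alb (1.81), the albumin gene, were there too, so the list was mixed. Col9a1 was 18th. The 5 genes with the profile nearest to Fmod were Lad1 (distance 0.15), Hid1 (0.19), Muc4 (0.20), a membrane mucin, Pxylp1 (0.21), a phosphatase that acts on the linker of glycosaminoglycan chains, and Atp2a3 (0.23). These 5 lay closer to Fmod than Prelp did (0.52). Tff3 also read 8.31 in WT 3, against 4.87 to 5.61 in the other 4 arrays.

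The genes nearest to Ogn were chosen in the same way. Rpap2 (distance 0.05), Ube3a (0.06), Yod1 (0.06), 2410006H16Rik (0.07) and Shfl (0.07) had WT 1, KO 2 and KO 3 as their high arrays, and lay closer to Ogn than Aspn did (0.17).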
